A study of Mus musculus with 18 samples.

Results

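The genes described are the autosomal protein-coding mouse genes for subunits of GABA-A receptors (symbols beginning Gabr), ionotropic glutamate receptors (Gria, Grik and Grin), metabotropic glutamate receptors (Grm), serotonin receptors (Htr), dopamine receptors (Drd), and muscarinic and nicotinic acetylcholine receptors (Chrm, Chrna and Chrnb). They were chosen by symbol from the RefSeq table of assembly GRCm38.p6, and 75 of 20665 autosomal protein-coding genes met the rule. There were 16 GABA-A, 3 AMPA, 5 kainate, 7 NMDA, 8 metabotropic glutamate, 13 serotonin, 5 dopamine, 5 muscarinic and 13 nicotinic genes. The receptor genes Gabra3, Gabre, Gabrq, Gria3 and Htr2c lie on chromosome X and were left out.

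H3K27me3, trimethylation of lysine 27 of histone H3, is placed by Polycomb repressive complex 2, whose catalytic subunit is EZH2 or its paralogue EZH1. The mark is found over silent genes, often at promoters rich in CG dinucleotides, and is typical of developmental regulators and of neuronal genes that are not yet used in dividing progenitors. The medial ganglionic eminence (MGE) is an embryonic forebrain zone whose progenitors give rise to many GABAergic interneurons, cells that later express their own sets of receptors for GABA, glutamate and neuromodulators.

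H3K27me3 was profiled with CUT&Tag, in which an antibody directs a transposase to tag DNA at the mark, in nuclei of the MGE at embryonic days E12.5 and E15.5. Embryos came from Nkx2.1-Cre C/C;Ezh2 F/+ fathers and Ai9 F/F;Ezh2 F/+ mothers, so WT and Ezh2 KO embryos alike carried 1 copy of the Cre driver and 1 copy of the Ai9 tdTomato reporter. Each stage had 3 WT and 3 KO libraries, numbered as biological replicates in the labels, while the 6 heterozygous samples among the 18 of the series are not analysed here. The Cre acts only in the Nkx2-1 lineage, cells that did not recombine remain in the tissue, and MGEs of embryos sharing a genotype were combined where applicable. At E12.5 the whole MGE was taken, and at E15.5 it was dissected under fluorescence for Tom+ tissue, so stage and dissection cannot be told apart. In bulk tissue, fewer cells with the mark and less of it per cell cannot be told apart either.

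Each library has a list of intervals enriched for H3K27me3 with a count for each. A gene was taken to have an interval if one overlapped its body or the 2.5 kb on either side. Lists held 5008 to 13289 intervals, and the depth, the mean count per 200 bp window recovered from the lists, ran from 0.0751 to 0.698. Replicates 1 to 3 had 0.117, 0.698 and 0.481 in E12.5 WT, 0.212, 0.272 and 0.243 in E12.5 KO, 0.0751, 0.129 and 0.150 in E15.5 WT and 0.179, 0.216 and 0.346 in E15.5 KO, and values are given in this replicate order throughout. Every E15.5 KO library was therefore deeper than every E15.5 WT library. The MGE genes Nkx2-1, Lhx6, Lhx8, Dlx1, Dlx2 and Dlx5 and the dorsal pallium genes Emx1, Emx2, Tbr1 and Neurog2 had an interval in all 12 libraries, and Sox2 in 11. Of other cell types, Cldn5 had one in 12, Tek in 2, and Pecam1, Csf1r, Aif1 and Cx3cr1 in 0. Because the mark lies mostly over genes that are off, these intervals do not identify the cells of the samples, and they hold no check of the Ezh2 deletion.

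Promoter sequences of 8 receptor genes show the range of base composition over which a listed interval was present or absent. Each is the RefSeq window on GRCm38.p6 from 250 bases before to 50 bases after a gene start, read along the strand of the gene. Capitals mark CG dinucleotides, which read the same on both strands. At least 1 CG was present in 95.6% of the 20085 autosomal promoter windows of this length, and 10 or more in 57.9%. Grik3 (chr4:125490446-125490745, plus strand, 50 CG), Chrna4 (chr2:181039128-181039427, minus strand, 33 CG), Gabra5 (chr7:57510010-57510309, minus strand, 13 CG) and Grm6 (chr11:50850435-50850734, plus strand, 4 CG) were covered in all 12 libraries, that is, overlapped by an interval over at least part of the window. Chrna7 (chr7:63212477-63212776, minus strand, 35 CG), Grik2 (chr10:49788705-49789004, minus strand, 26 CG), Gabra2 (chr5:71095800-71096099, minus strand, 25 CG) and Gabrg1 (chr5:70842568-70842867, minus strand, 3 CG) were covered in none.
Grik3: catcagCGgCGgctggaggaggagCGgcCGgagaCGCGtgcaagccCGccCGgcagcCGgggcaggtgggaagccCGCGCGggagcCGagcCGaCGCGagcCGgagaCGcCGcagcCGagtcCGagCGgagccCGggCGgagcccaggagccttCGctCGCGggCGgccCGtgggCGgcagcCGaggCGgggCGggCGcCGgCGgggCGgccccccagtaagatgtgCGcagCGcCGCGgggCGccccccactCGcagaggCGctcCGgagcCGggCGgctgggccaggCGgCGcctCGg
Chrna4: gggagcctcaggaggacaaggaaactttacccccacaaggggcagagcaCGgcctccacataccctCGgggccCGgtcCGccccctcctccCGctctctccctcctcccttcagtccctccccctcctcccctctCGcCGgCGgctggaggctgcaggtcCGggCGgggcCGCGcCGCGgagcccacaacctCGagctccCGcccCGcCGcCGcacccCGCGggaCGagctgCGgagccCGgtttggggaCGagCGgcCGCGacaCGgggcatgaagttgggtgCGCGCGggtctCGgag
Gabra5: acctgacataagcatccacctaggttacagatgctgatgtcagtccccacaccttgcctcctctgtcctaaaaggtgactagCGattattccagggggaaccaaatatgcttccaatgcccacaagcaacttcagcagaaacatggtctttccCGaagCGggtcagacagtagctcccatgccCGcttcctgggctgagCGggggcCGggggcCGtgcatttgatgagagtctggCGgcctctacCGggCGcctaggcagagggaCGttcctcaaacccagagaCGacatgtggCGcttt
Grm6: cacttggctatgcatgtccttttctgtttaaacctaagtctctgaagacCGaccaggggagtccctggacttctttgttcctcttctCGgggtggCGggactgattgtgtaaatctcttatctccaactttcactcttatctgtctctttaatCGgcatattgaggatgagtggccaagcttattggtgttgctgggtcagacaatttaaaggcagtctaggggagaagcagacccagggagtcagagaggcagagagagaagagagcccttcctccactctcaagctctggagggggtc
Chrna7: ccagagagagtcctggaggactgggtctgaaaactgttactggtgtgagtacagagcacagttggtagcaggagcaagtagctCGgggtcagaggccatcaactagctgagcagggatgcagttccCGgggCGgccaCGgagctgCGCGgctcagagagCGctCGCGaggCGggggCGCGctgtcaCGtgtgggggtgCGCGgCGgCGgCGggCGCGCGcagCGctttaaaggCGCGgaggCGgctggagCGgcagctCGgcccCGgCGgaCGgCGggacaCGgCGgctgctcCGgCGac
Grik2: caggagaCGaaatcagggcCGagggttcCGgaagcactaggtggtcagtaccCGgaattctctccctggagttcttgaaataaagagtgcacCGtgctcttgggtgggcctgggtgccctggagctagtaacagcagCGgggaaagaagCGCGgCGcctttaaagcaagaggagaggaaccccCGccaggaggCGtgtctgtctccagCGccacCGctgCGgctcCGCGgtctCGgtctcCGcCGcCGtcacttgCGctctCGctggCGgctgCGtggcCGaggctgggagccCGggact
Gabra2: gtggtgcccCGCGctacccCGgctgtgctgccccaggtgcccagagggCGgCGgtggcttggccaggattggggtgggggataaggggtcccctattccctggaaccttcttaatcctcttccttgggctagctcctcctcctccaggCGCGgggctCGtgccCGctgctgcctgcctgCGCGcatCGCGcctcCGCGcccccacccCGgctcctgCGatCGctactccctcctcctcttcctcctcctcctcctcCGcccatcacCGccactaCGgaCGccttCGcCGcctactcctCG
Gabrg1: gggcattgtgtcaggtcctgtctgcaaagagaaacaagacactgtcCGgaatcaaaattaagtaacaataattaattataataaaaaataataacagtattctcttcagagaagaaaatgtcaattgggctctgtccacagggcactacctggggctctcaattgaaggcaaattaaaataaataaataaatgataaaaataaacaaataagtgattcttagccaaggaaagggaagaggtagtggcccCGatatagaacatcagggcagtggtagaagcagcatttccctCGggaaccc

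Of the 75 genes, 29 had an interval in all 12 libraries (38.7%), 25 in some (33.3%) and 21 in none (28%). Of all 20665 autosomal protein-coding genes, 12.1% had an interval in every library and 61.2% in none. Metabotropic glutamate receptors and NMDA receptor subunits had the highest shares of genes marked in all 12 libraries, with 7 of 8 and 6 of 7. GABA-A and nicotinic subunits had the highest shares marked in none, with 9 of 16 and 7 of 13. AMPA subunits had 0 of 3 genes in all 12 libraries, 2 in some and 1 in none. These counts describe the lists and carry no test.

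**Figure D1:**
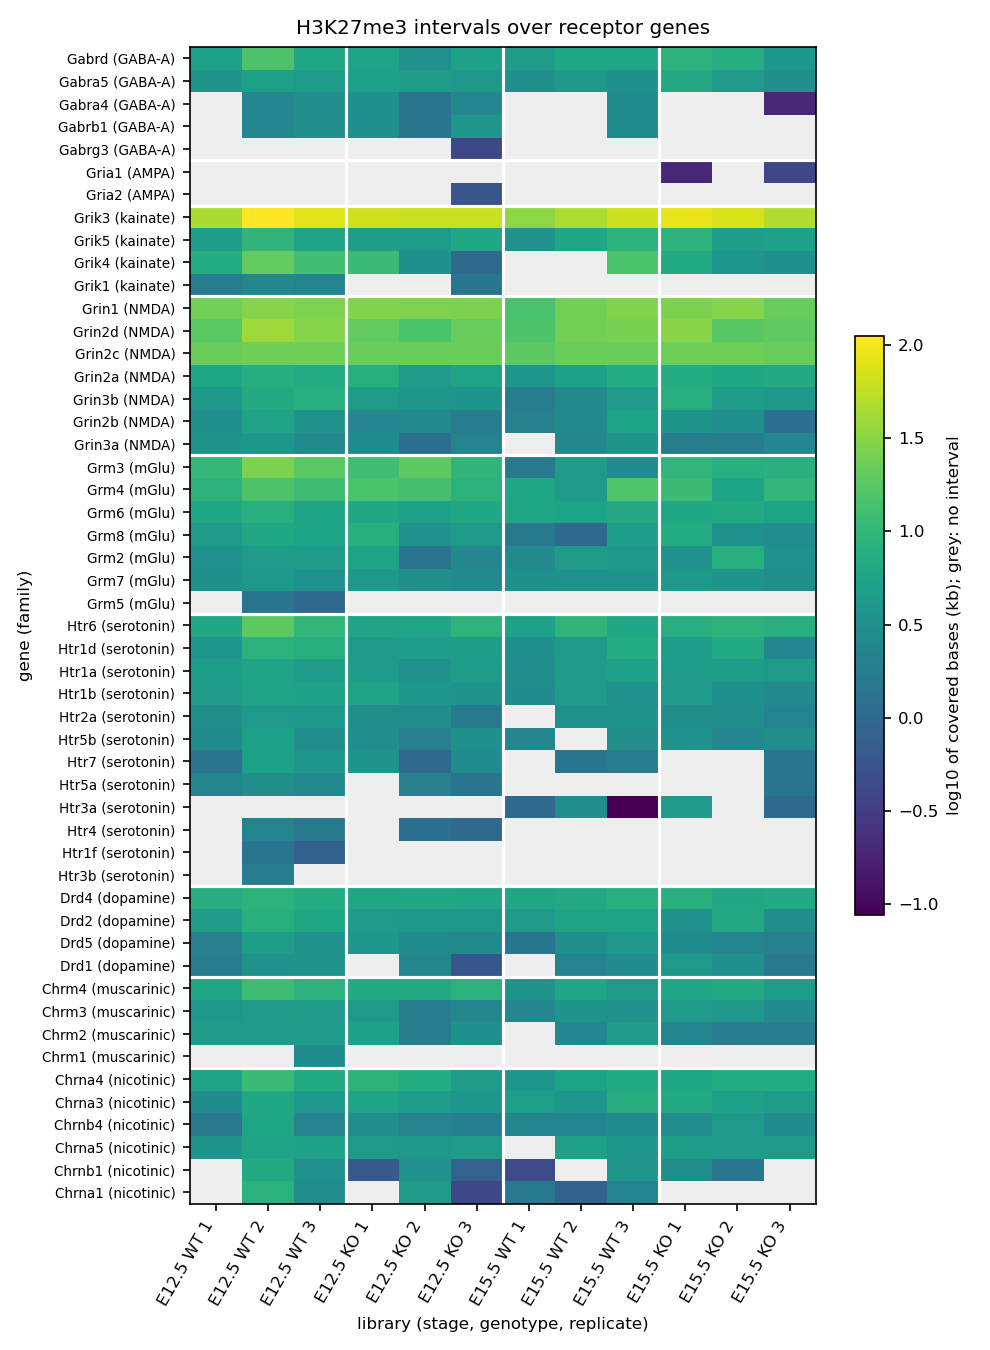
Log10 of the covered bases (kb) within the gene body plus 2.5 kb on either side, for receptor genes with an interval in at least 1 library (rows, by family) in the 12 libraries (columns, by stage, genotype and replicate). Grey cells have no interval. The row of Grik3 is the brightest, and the NMDA and mGlu blocks are nearly free of grey cells while the AMPA block is nearly all grey.

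Among GABA-A receptor subunits, Gabra5 and Gabrd were the 2 genes with an interval in all 12 libraries. Both encode subunits known from receptors outside the synapse that carry tonic inhibition. Gabrd (chr4:155384979-155398098) was covered over 3400 to 15120 bases. Gabra5 (chr7:57407669-57591016) was covered over 3200 to 6600 bases, with an interval that overlapped the promoter printed above in every library. Gabra2, Gabrb2 and Gabrg1 had no interval in any library, as did Gabra6, Gabrp, Gabrr1, Gabrr2 and Gabrr3. Whether marking goes with the role of a subunit was not tested. Gabrg3 had 1 interval, of 6 counts in E12.5 KO replicate 3. Gabra4 and Gabrb1 lie head to head on chromosome 5 and shared the same interval in 6 libraries, so their values there are 1 measurement. That interval had 72 and 65 counts in E12.5 WT replicates 2 and 3, 16, 12 and 40 in E12.5 KO replicates 1 to 3 and 12 in E15.5 WT replicate 3.

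The ionotropic glutamate receptor genes ranged from the broadest domain of the whole set to none. Grik3 (chr4:125490259-125714173), which encodes the kainate receptor subunit GluK3, was covered over 33242 to 111642 bases. Its interval with the most counts lay over the gene start in every library and spanned 19600 to 30400 bases. A further 3 to 15 intervals lay along the gene, of which one in E12.5 KO replicate 1 was wider than that over the start. Grik2, which encodes another main kainate subunit, had no interval in any library, although its promoter held 26 CG. Grik1 had an interval in the 3 E12.5 WT libraries, of 9, 50 and 37 counts, and in E12.5 KO replicate 3, of 16 counts. Grik5 had one in all 12 libraries and Grik4 in 10. The 3 autosomal AMPA subunit genes, which encode the channels of most fast excitatory transmission, were almost free of listed intervals. Gria4 had no interval, Gria2 had 1 of 6 counts, in E12.5 KO replicate 3, and Gria1 had 1 of 8 counts in each of E15.5 KO replicates 1 and 3.

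All 7 NMDA receptor subunit genes had an interval in at least 11 libraries. Grin1 (chr2:25291177-25319187), whose product is needed in every NMDA receptor, was covered over 14524 to 30611 bases, that is, over much of its length of 28011 bases. Grin2c (chr11:115249169-115267297) was covered over 18332 to 23129 bases and Grin2d (chr7:45831883-45871194) over 14800 to 39494. By contrast, Grin2b, the subunit typical of the embryonic brain, was covered over 1200 to 5600 bases of a gene of 460395 bases. The 1200 bases were those of E15.5 KO replicate 3, whose only interval lay apart from that of the other libraries. The normalised count per covered kb at Grin2b was 9.5, against 48.0 at Grin1 and 45.7 at Grin2c. A normalised count is the interval count brought to the average depth of all 12 lists, and per-kb values are means over libraries of the part of the count inside the gene window. Grin3a lacked an interval in E15.5 WT replicate 1, the shallowest library.

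Of the metabotropic glutamate receptors, which signal through G proteins, Grm5 was marked in 2 libraries. It had an interval of 22 counts in E12.5 WT replicate 2 and one of 15 in replicate 3, and none elsewhere. The group II genes Grm2 and Grm3, whose products reduce transmitter release, and the group III genes Grm4, Grm6, Grm7 and Grm8 were covered in all 12. Grm6 (chr11:50850369-50866208), known from retinal bipolar cells, had 66.3 normalised counts per covered kb although its promoter held 4 CG.

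Htr6, Htr1a, Htr1b and Htr1d had an interval in all 12 libraries. Htr6 (chr4:139059706-139075570), a receptor coupled to cyclic AMP production, had 53.8 normalised counts per covered kb, and Htr1a (chr13:105443693-105448133), an inhibitory receptor, had 42.5. Htr2b had no interval. Htr3a, a ligand-gated channel known from interneurons of the caudal ganglionic eminence, had no interval in any E12.5 library. At E15.5 it had 6, 12 and 10 counts in the WT libraries and 31 and 13 in KO replicates 1 and 3. The intervals of WT replicates 2 and 3 and KO replicate 1 overlapped, with that of WT replicate 2 at chr9:48895201-48899600, while those of WT replicate 1 (chr9:48910201-48911200) and KO replicate 3 (chr9:48906601-48907600) lay apart. The interval of WT replicate 3 (chr9:48894401-48896800) lay outside the gene body and reached only the edge of the 2.5 kb flank.

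Drd2, Drd4 and Drd5 had an interval in all 12 libraries, Drd1 in 10 and Drd3 in none. Drd4 (chr7:141291974-141296464), a receptor of the inhibitory class, had 78.4 normalised counts per covered kb, the highest value of the 75 genes. Chrm3 and Chrm4 had an interval in all 12 libraries, Chrm2 in 11, Chrm1 in 1 and Chrm5 in none. Chrna3, Chrna4 and Chrnb4 were marked in all 12 libraries and Chrna5 in 11. Chrna3, Chrna5 and Chrnb4 form a cluster on chromosome 9 that encodes subunits of ganglionic receptors, and Chrna3 and Chrnb4 shared an interval in all 12 libraries. Outside E12.5 WT replicate 2 it was the only interval at Chrnb4, whose promoter window was covered in 1 library. Their values are thus nearly 1 measurement, although all counts treat them as separate genes. Chrna7 and Chrnb2, which contribute to the main nicotinic receptors of the brain, had no interval in any library, while Chrna4 (chr2:181022311-181043579), whose product pairs with that of Chrnb2, was covered over 3800 to 11400 bases. Chrna2, Chrna6, Chrna9, Chrna10 and Chrnb3 also had none. Chrnb1 had an interval in 9 libraries, but 22.9% of the counts of its intervals lay inside its window, which also holds Fgf11 and Zbtb4.

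Promoters of receptor genes that were never covered held fewer CG dinucleotides, with exceptions in both directions. The table gave 66 promoter windows for 56 of the 75 genes. The median was 15 CG in the 21 windows covered in all 12 libraries, 14 in the 21 covered in some and 6.5 in the 24 covered in none. Over all autosomal promoter windows the same medians were 20, 21 and 8. Of member windows with 20 or more CG, 45% were covered in all 12 libraries, against 10.4% of all windows in that range. Of those with 10 to 19 it was 40.9% against 10.9%. Of the 8 uncovered windows with 10 or more CG, those with the most belonged to Chrna7 (35), Gria2 (26), Grik2 (26), Gabra2 (25) and Gria4 (17). Grin3b (3) and Grm6 (4), in turn, had few and were covered in all 12.

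**Figure D2:**
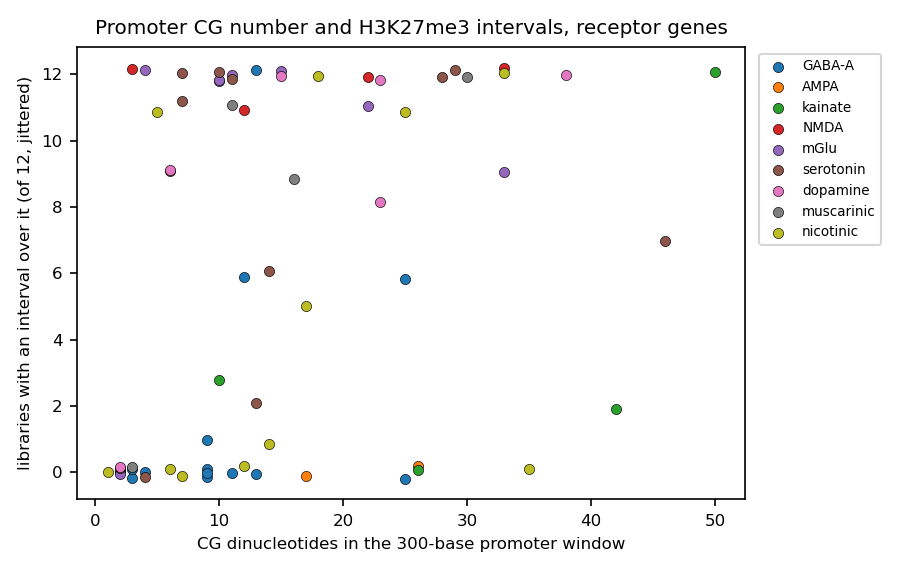
Number of CG dinucleotides in each of the 66 promoter windows of 300 bases (x axis) against the number of libraries, of 12, with an interval over the window (y axis, jittered), coloured by family. Windows in none of the libraries reach from 1 CG at Chrna10 to 35 at Chrna7, and windows in all 12 from 3 at Grin3b to 50 at Grik3.

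In single libraries, an interval was present at 39, 48 and 48 of the 75 genes at E12.5 in WT and at 39, 43 and 47 in KO. At E15.5 it was present at 33, 37 and 42 in WT and at 40, 37 and 41 in KO. The group means were 45 ± 5.2, 43 ± 4.0, 37.3 ± 4.5 and 39.3 ± 2.1 (SD, n = 3) in that order, and the ranges of the genotypes overlapped at each stage. Depth moves with these numbers, since the 2 deepest libraries, E12.5 WT replicates 2 and 3, had the most genes. With each autosomal list shortened to its 4575 highest-scoring intervals, the numbers were 39, 41 and 40, then 39, 38 and 39, at E12.5, and 33, 35 and 37, then 34, 35 and 34, at E15.5. All 6 E12.5 libraries then lay above all 6 E15.5 libraries, and the WT and KO libraries still overlapped. Of all genes, 16.2% to 19.3% had an interval in the shortened E12.5 lists and 14.9% to 17.4% in the E15.5 lists, so these shares overlapped between the stages. As no test was planned for these numbers, none is given.

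**Figure D3:**
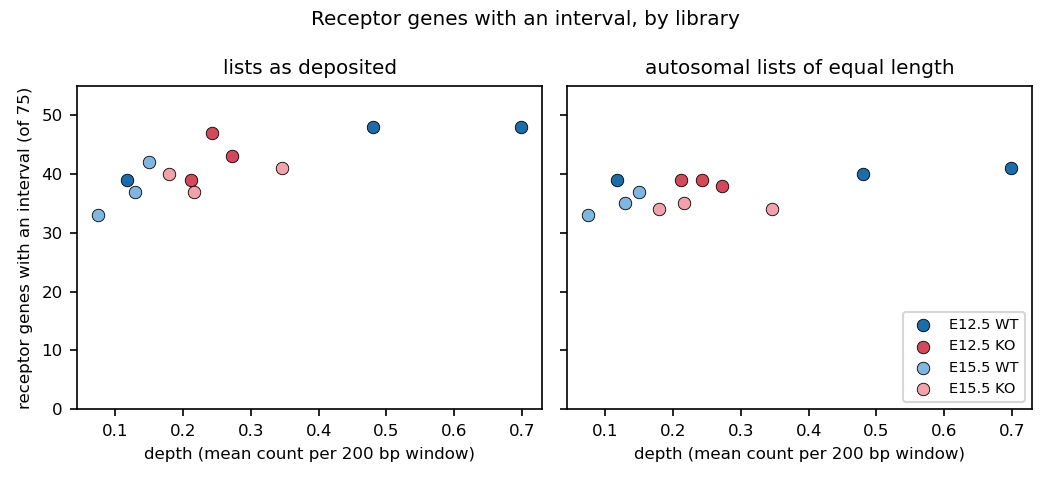
Number of receptor genes with an interval, of 75 (y axis), against depth in mean count per 200 bp window (x axis), 1 point per library, with the lists as deposited (left) and with autosomal lists of equal length (right). On the right the 6 E12.5 libraries sit between 38 and 41 genes and the 6 E15.5 libraries between 33 and 37.

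Few receptor genes had an interval in every library of one group and in none of the group it was compared with. Between genotypes at E12.5, 0 of the 51 receptor genes with an interval had one in all WT and no KO library (0.598% of all genes with an interval did), and 0 the reverse (0%). At E15.5, Chrna1, which encodes a subunit of the muscle receptor, had an interval in all 3 WT libraries, of 6, 8 and 11 counts, and in no KO library (0.0465% of all genes). No member had the reverse pattern at E15.5 (1.33% of all genes). The E15.5 KO libraries, which had no interval at Chrna1, were the deeper ones. With lists of equal length, however, its interval was kept in E15.5 WT replicate 1 and not in replicates 2 and 3. At E12.5 Chrna1 had 163 and 46 counts in WT replicates 2 and 3, 40 and 9 in KO replicates 2 and 3, and no interval in either replicate 1. Between stages, Grik1 and Htr5a had an interval in all E12.5 WT and no E15.5 WT library (2.96% of all genes), and Htr3a the reverse (0.0687%). The mean depth was 0.432 in E12.5 WT and 0.118 in E15.5 WT. The Htr3a pattern needed the flank, since the interval of E15.5 WT replicate 3 lay outside the gene body, and the 3 WT intervals were not at 1 shared site. Htr5a had 14, 69 and 72 counts in E12.5 WT. Gabrb1 had an interval in all E12.5 KO and no E15.5 KO library (0.914% of all genes). Among all 12 libraries, lists of equal length left an interval at Grik1 in 1 library in place of 4, so its pattern did not hold there. They left one at Htr5a in 4 in place of 6, at Htr3a in 3 in place of 5 and at Gabrb1 in 4 in place of 6. An interval that was not listed has no count, so the size of these differences is unknown.

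Counts were tested only at genes with an interval in every library compared, so genes that were lost from a list could not enter. At E12.5, 36 of the 75 receptor genes could be tested and 1, Grm2, fell in KO (edgeR quasi-likelihood test, Benjamini-Hochberg adjusted over 3140 genes; 4.04% of all genes tested were called, all 127 lower). The normalised count at Grm2 (chr9:106644534-106656109) was 48.7, 65.1 and 66.0 in the WT libraries and 23.3, 12.4 and 27.8 in the KO libraries. Every KO library lay below every WT library. The log2 change was -1.53 (SE 0.39, edgeR adjusted p = 0.0374). At this depth scaling the median change of all genes was -0.57, and that of the 36 receptor genes -0.64, so that Grm2 lay 0.96 below the median of all genes. With TMM factors, which move the median of all genes to -0.05, the change at Grm2 was -0.998 (edgeR adjusted p = 0.182), and no receptor gene was called while 38 genes fell and 9 rose. The counts behind Grm2 were 22, 175 and 122 in WT and 19, 13 and 26 in KO, so the KO values rest on few counts. Over all alternatives run for this comparison, the adjusted p at Grm2 ran from 0.0045 to 0.416 and its log2 change from -1.79 to -0.94.

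Of the 36 genes, 34 had a log2 change below 0 at the depth scaling, as did 91.6% of all genes tested, and 26 did with TMM factors. An unadjusted p below 0.05 was reached by 12 of them, or 33.3%, and by 28.8% of all genes. Values ran from that of Grm2 to 0.48 at Grm4. At Drd2 the normalised counts were 162, 218 and 170 in WT and 89.4, 78.2 and 97.2 in KO, and although the groups did not overlap the change of -1.06 did not pass the test (edgeR adjusted p = 0.109). Gabrd had a change of -0.93 (edgeR adjusted p = 0.14) and Htr6 of -1.06 (edgeR adjusted p = 0.113). Over all 12 libraries, 74.6% of the counts of the Htr6 intervals lay inside its window. The interval of 1871 counts in WT replicate 3 spanned 26000 bases and reached beyond that window. The E12.5 KO libraries differed among themselves, as at Grin1, with 1092, 1401 and 1816 normalised counts against 1724, 2174 and 1871 in WT. Without KO replicate 3, 14 of 36 receptor genes and 900 of all 3144 genes were lower, without WT replicate 1 there were 2, Grm2 and Htr6, and without any other single library of this comparison there were 0. The 14 included Drd2, Gabrd, Htr1a, Htr1d, Htr6, Grin2a and Grin2c. With DESeq2, whose size factors set the median of all genes to 0.02, 96 genes fell and 72 rose, and among receptor genes Grm4 (1.16, adjusted p = 0.00412), Grik3 (0.62, adjusted p = 0.045) and Chrm4 (0.50, adjusted p = 0.0462) were higher and Grm2 was not called (-0.94, adjusted p = 0.093).

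At Grik3 the values of the gene start and of the gene interior were taken separately at E12.5. The normalised count of its whole window was 2218, 2918 and 2141 in WT and 1802, 2776 and 2812 in KO, which is a difference of 0.02 on the log2 scale (SE 0.29, adjusted p from edgeR 0.951). Of the counts of its intervals, 71.2% lay inside the window, as the interval over the start reached beyond it. The interval over the gene start had 1635, 1619 and 1308 in WT and 1364, 2057 and 2067 in KO. The region inside the gene at chr4:125527401-125555200 had 394, 822 and 581 in WT and 149, 362 and 379 in KO, with every KO library below every WT library. When merged intervals were tested in place of genes, this region, taken for Grik3 because its overlap was the longest, was lower in KO (log2 change -1.02, edgeR adjusted p = 0.0269). In the E15.5 libraries the intervals of this inner part had 457, 559 and 491 in WT and 668, 532 and 616 in KO. With merged intervals as the unit, the difference between the stages in the KO effect at Grik3 was 1.29 on the log2 scale (edgeR adjusted p = 0.0136), against 0.34 for the whole window (edgeR adjusted p = 0.375). The difference between the start and the inner region was not tested.

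At E15.5, 29 receptor genes could be tested and 0 were called by edgeR (0.482% of 2695 genes were, with 2 lower and 11 higher), against 2 (6.9%) with an unadjusted p below 0.05, as had 11.2% of all genes. With TMM factors and with DESeq2 there were also 0, although DESeq2 called 26 genes lower and 49 higher. The median log2 change was -0.02 over the receptor genes and -0.01 over all genes. Values ran from -1.01 at Grin2b to 0.98 at Grm3. The Grin2b value rests on 15, 17 and 10 counts in KO, and the interval of KO replicate 3 (chr6:135749601-135750800) lay apart from that of the other libraries. At Grm3 the normalised count was 24.2, 70.3 and 46.8 in WT and 106, 79.5 and 104 in KO, with every KO library above every WT library (SE 0.35, edgeR adjusted p = 0.379). Every KO library also listed intervals inside the gene, whereas WT replicates 1 and 3, which were shallower, listed none there. Before scaling, the interval over the gene start had 7, 26 and 27 counts in WT and 51, 28 and 73 in KO. The part of these unlisted intervals in the separation was not tested. The normalised count at Grik3 was 1854, 1977 and 1933 in WT and 2518, 2571 and 2296 in KO, again with no overlap (log2 change 0.36, SE 0.10, edgeR adjusted p = 0.237). At Grm2 the groups overlapped, with 38.0, 46.2 and 39.9 in WT and 45.1, 39.7 and 29.3 in KO.

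**Figure D4:**
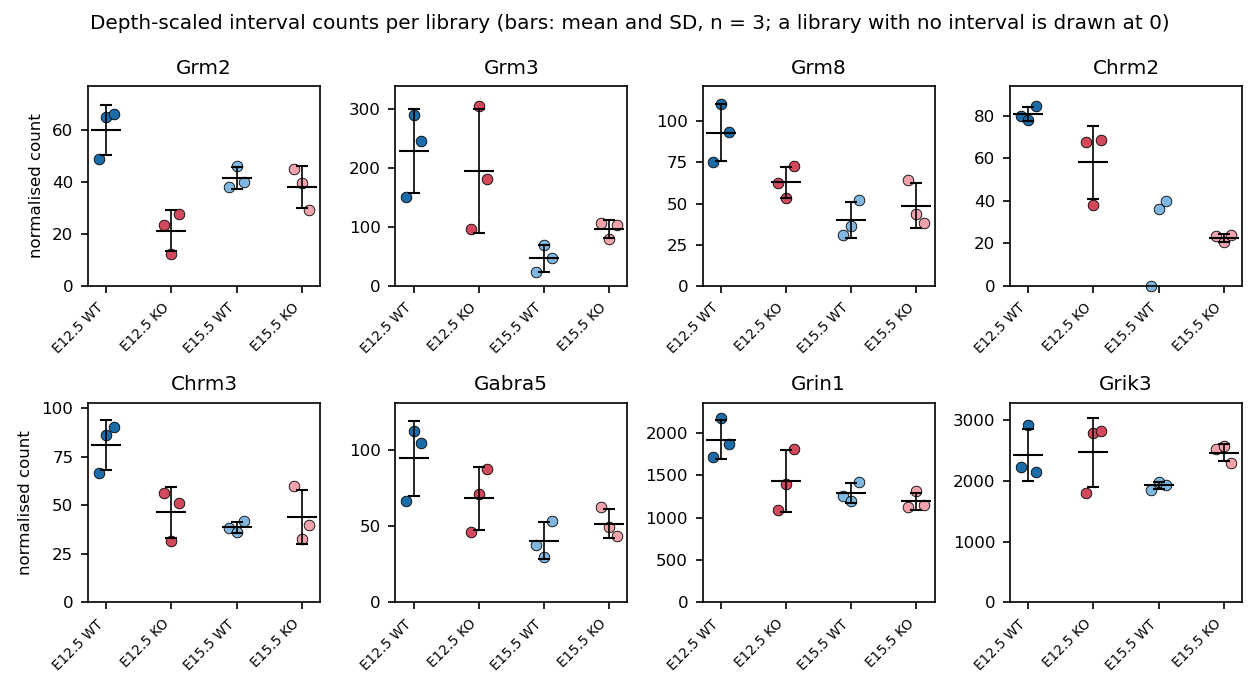
Normalised interval counts (y axes, from 0) of 8 receptor genes in each of the 12 libraries, by group (x axes), with the mean and SD of each group of 3. A library with no interval is drawn at 0 without mean and SD for its group, as for Chrm2 in E15.5 WT. The E12.5 KO points of Grm2 lie below all E12.5 WT points, and the E15.5 WT points of Grm3 lie below all E12.5 WT points.

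Over both stages, with stage in the model, 29 receptor genes could be tested and 0 were called by edgeR (0.963% of 2492 genes were, 23 lower and 1 higher, with a median of -0.29), against 8 (27.6%) with an unadjusted p below 0.05, as had 21.1% of all genes. With TMM factors Grik3 (0.47, edgeR adjusted p = 0.0165) and Chrm4 (0.42, edgeR adjusted p = 0.0217) were higher, when 49 of all genes were lower and 53 higher. DESeq2 called these 2 higher as well and Drd2 lower (-0.37, adjusted p = 0.0454), with 113 of all genes lower and 104 higher. Over all alternatives the adjusted p ran from 0.000156 to 0.585 at Grik3, whose log2 change was -0.38 with merged intervals as the unit, and from 6.71e-05 to 0.889 at Chrm4. The difference between the stages in the KO effect was called by edgeR at 0 receptor genes (0.562% of 2492 genes, 14 higher at E15.5 and 0 lower, with a median of 0.61), against 7 (24.1%) with an unadjusted p below 0.05, as had 27.5% of all genes. TMM factors and DESeq2 also called 0 receptor genes, while DESeq2 called 38 of all genes higher and 5 lower. At Grm2 that difference was 1.39 on the log2 scale (SE 0.44, edgeR adjusted p = 0.12). Without E12.5 KO replicate 3 it was called at 11 of 29 receptor genes and 957 of all 2492 genes, all with the higher value at E15.5.

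The covered bases of receptor genes did not differ between genotypes at the threshold. At E12.5, limma on log2(covered bases + 200) called 0 of 36 genes (0% of 3140 genes), with 2 at an unadjusted p below 0.05 (9.78% of all genes), and at E15.5 it called 0 of 29 (0% of 2695 genes), with 1 (5.97% of all genes). The median log2 difference on that scale was -0.33 over the receptor genes and -0.30 over all genes at E12.5, and 0.21 and 0.17 at E15.5. These differences follow the order of the mean depth of the groups, and the part of depth in them was not tested. Without E12.5 WT replicate 1, 1 of 39 receptor genes, Htr1d, was called lower in KO at E12.5, as were 82 of all 3373 genes.

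Between stages in WT, 9 of the 29 receptor genes tested fell from E12.5 to E15.5 and 0 rose (edgeR, adjusted over 2624 genes). The share was close to that of all genes, of which 37.5% were called and 35.8% were lower. The 9 genes were Chrm3, Chrm4, Gabra5, Grin1, Grin2a, Grin2c, Grm3, Grm8 and Htr1a. All 29 had a log2 change below 0 at the depth scaling, as did 85.9% of all genes tested, but 18 did with TMM factors. The median was -0.63 over the receptor genes and -0.58 over all genes. With TMM factors, which move the median of all genes to -0.10, 449 genes were lower and 271 higher in place of 939 and 45, and 4 of the 9 receptor genes were still called, namely Chrm3, Chrm4, Grm3 and Grm8. DESeq2 called 382 lower and 373 higher, and of the receptor genes Grm3 lower (-1.65) and Drd2 higher (0.51).

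Grm3 (chr5:9485236-9725352) had the largest fall of the 9. Its normalised counts were 151, 290 and 245 in E12.5 WT and 24.2, 70.3 and 46.8 in E15.5 WT. Every E15.5 library lay below every E12.5 library, and the log2 change was -2.24 (SE 0.41, edgeR adjusted p = 0.0128), or -1.75 with TMM factors (edgeR adjusted p = 0.0127). Over all alternatives its adjusted p ran from 1.59e-05 to 0.0588. The whole-window change also takes in which intervals were listed, since E15.5 WT replicates 1 and 3 listed none inside the gene. The region over the gene start, chr5:9720601-9727400, had 90.8, 151 and 139 normalised counts at E12.5 and 24.2, 52.2 and 46.8 at E15.5. With merged intervals as the unit, the log2 change of this region was -1.60 (edgeR adjusted p = 0.00416). At Grm8, a presynaptic group III receptor, the counts were 75.3, 110 and 93.5 at E12.5 and 31.1, 36.2 and 52.0 at E15.5, which is -1.21 on the log2 scale (SE 0.29, adjusted p from edgeR 0.0207). The muscarinic genes Chrm3 and Chrm4, which encode receptors of the excitatory and the inhibitory class, fell by 1.08 and 1.02 on the log2 scale. Chrm3 went from 66.5, 86.3 and 90.3 normalised counts to 38.0, 36.2 and 41.6. Chrm4 went from 244, 339 and 271 to 152, 129 and 142. At both genes no E15.5 library reached the lowest E12.5 library.

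Gabra5 fell by 1.23, Htr1a by 0.89, Grin2a by 0.81, Grin2c by 0.77 and Grin1 by 0.57 on the log2 scale, and these 5 were not called with TMM factors. Grin1 went from 1724, 2174 and 1871 normalised counts to 1259, 1193 and 1425, but its whole window lay at the median of all genes, with a change of -0.10 with TMM factors (edgeR adjusted p = 0.449, range over all alternatives 0.00333 to 0.99). The region over its start, at chr2:25301401-25323000, had 503, 870 and 677 at E12.5 and 256, 317 and 413 at E15.5. When merged intervals were the unit, the log2 change of this region was -1.05 (edgeR adjusted p = 0.00333), against a median of -0.59 over all regions. The difference between this region and the rest of the window was not tested. The windows of Grin1, Grin2c and Chrm4 also hold other genes, namely Lrrc26 and Tmem210, Fdxr and Tmem104, and Mdk. Gabra5 went from 66.5, 113 and 105 to 38.0, 30.1 and 53.7. Single libraries moved how many were called, among receptor genes and among all genes. Without E12.5 WT replicate 3, 0 of 29 receptor genes and 237 of all 2626 genes were lower. Without E15.5 WT replicate 1 or 2 the 1 receptor gene was Grm3, when 194 of 2995 and 83 of 2697 genes were lower. Without E12.5 WT replicate 2 there were 5 of 29, and 555 of 2625 genes. Without E12.5 WT replicate 1 there were 18 of 30, and 1351 of 2759 genes.

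Between stages in KO, 35 receptor genes could be tested and 1, Chrm2, fell (edgeR, adjusted over 3003 genes), against 9.62% of all genes called and 5.49% lower. Chrm2 (chr6:36387991-36528638), an inhibitory muscarinic receptor, had normalised counts of 67.4, 38.2 and 68.4 at E12.5 and 23.3, 20.5 and 24.1 at E15.5. No E15.5 library reached the lowest at E12.5, and the log2 change was -1.35 (SE 0.42, edgeR adjusted p = 0.0328). With TMM factors it was -1.35 as well (edgeR adjusted p = 0.0311), when 231 of all genes were lower and 265 higher in place of 165 and 124. Over all alternatives its adjusted p ran from 0.00828 to 0.381. DESeq2 called 262 genes lower and 310 higher, and of the receptor genes Chrm2, Chrm4, Grm3 and Grm4 lower and Drd2 and Htr6 higher. In WT, Chrm2 had 79.8, 77.8 and 84.3 at E12.5 and 36.2 and 39.9 in E15.5 replicates 2 and 3, and was not tested there because replicate 1 had no interval. Without E12.5 KO replicate 3 or E15.5 KO replicate 1 or 2, 0 receptor genes were called, and without E12.5 KO replicate 1 or E15.5 KO replicate 3 the gene called was not Chrm2. Of the genes called in WT, Grm3 had a change of -1.02 in KO (edgeR adjusted p = 0.0735), Grm8 of -0.38 and Chrm3 of -0.08, and the test of the difference between WT and KO, which is the one of the KO effect between the stages, called none of them.

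**Figure D5:**
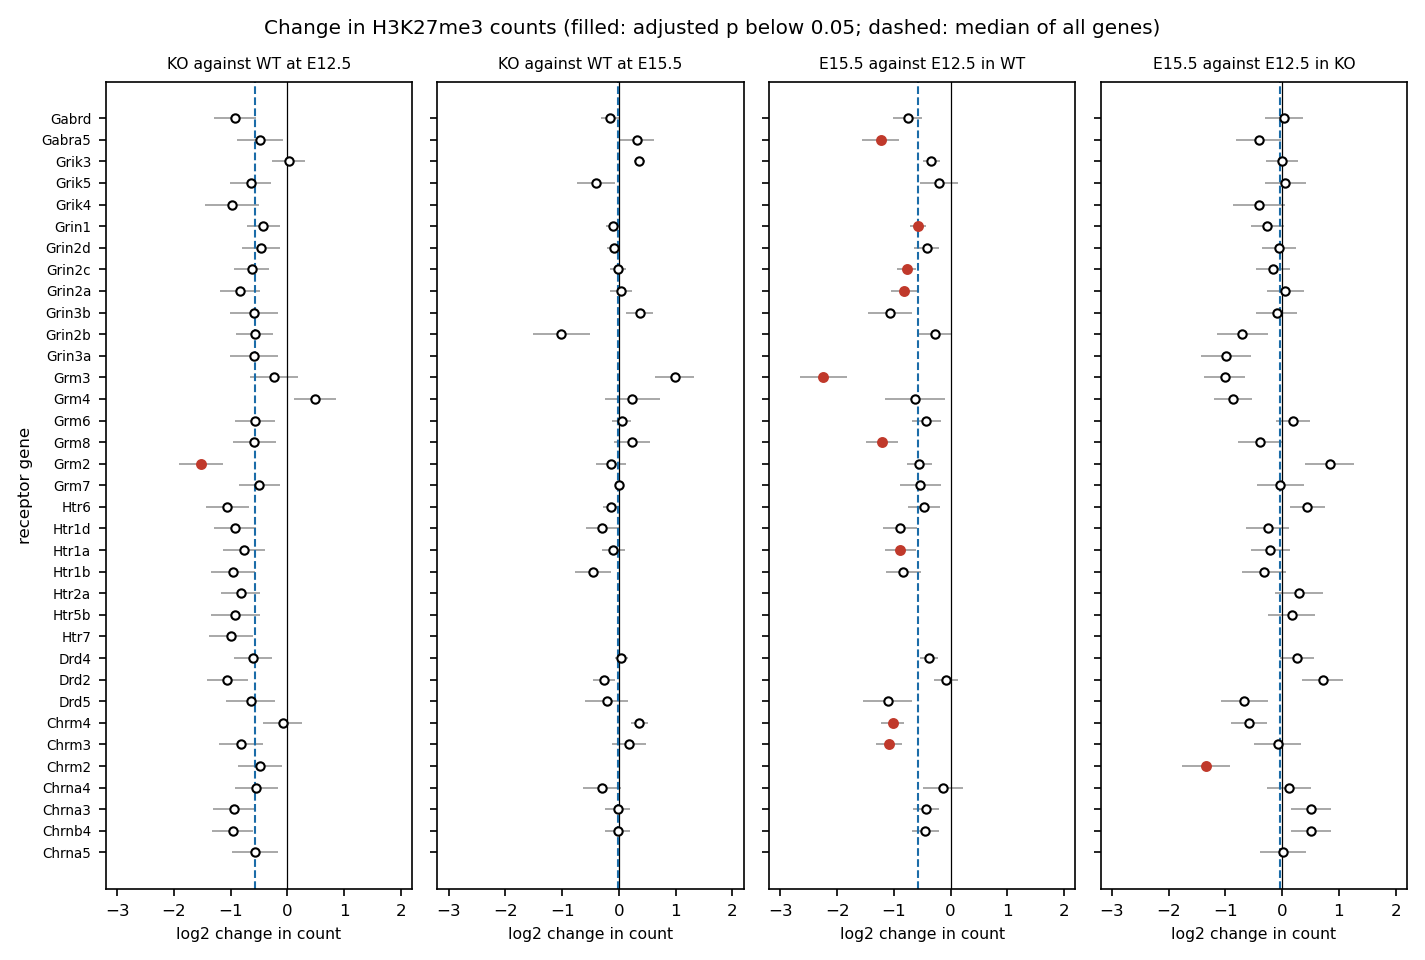
Log2 change in interval counts with its SE (x axes) for receptor genes tested (rows), in 4 comparisons. Filled points have an edgeR adjusted p below 0.05, and the dashed line is the median of all genes tested. In the panel of E15.5 against E12.5 in WT, at the depth scaling, every point drawn lies left of 0 and 9 are filled, and the other panels have at most 1 filled point.

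Other receptor genes were counted in the same way from a list that holds GABA-B, delta glutamate, glycine, muscle nicotinic, adrenergic, histamine and P2X receptors. Of the 29 genes listed, 16 could be tested between genotypes at E12.5 and 13 at E15.5, and edgeR called 0 at either stage, against 2 with an unadjusted p below 0.05 and 1 called by DESeq2 at each. Between stages in WT, 5 of 13 were lower and 0 higher by edgeR, when 35.8% of all genes tested were lower. Among them were Glra1, a glycine receptor subunit, at -2.27 on the log2 scale (SE 0.29, adjusted p from edgeR 0.00655), and the histamine receptor gene Hrh1, with -1.26 (SE 0.27, edgeR adjusted p = 0.0171). The other 3 were the adrenergic receptor genes Adra1d, Adra2b and Adrb3, none of which was called with TMM factors. Between stages in KO, Glra1 (-1.74) and Hrh1 (-1.16) were lower and the GABA-B receptor gene Gabbr2 (1.44) was higher, of 16 tested by edgeR. Of 16 genes for receptor partners, such as TARP and Neto proteins, 4 could be tested between genotypes at E12.5 and 3 at E15.5. By edgeR and by DESeq2 0 were called, and 2 and 0 had an unadjusted edgeR p below 0.05. Between stages in WT the AMPA receptor partner gene Cnih3 was lower, of 3 tested, at -1.09 on the log2 scale (SE 0.23, adjusted p from edgeR 0.0171).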

How the data were processed

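H3K27me3 CUT&Tag intervals of 12 WT and KO libraries were used, and the members and lists were chosen with earlier results of these data known. The authors deposited, per library, intervals with a read count and a score. Per the submitters' processing notes, cutadapt, Bowtie2, SAMtools, Picard, deepTools and SICER were used with GRCm38/mm10, and their parameters are not given in the sources used here. All intervals lay on a grid of 200 bp windows with gaps of at least 800 bp. Lists hold only intervals above the caller's threshold, so an absent interval is not a count of 0.

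Total reads were not used. The depth (mean count per window) was recovered from the deposited score of intervals of 1 window, taken as minus the natural log of a Poisson probability (largest misfit 0.0041). That this depth is proportional to the reads of a library is an assumption. Counts were summed over intervals overlapping a gene body plus 2.5 kb (RefSeq, GRCm38.p6), and normalised counts were scaled to the mean depth of 0.26. Counts in intervals ran from 573838 to 6846250 per library, and they cover counting error only.

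Genes with an interval in every library compared were tested with edgeR 4.0.16 (quasi-likelihood, library sizes from the depth) and covered bases with limma 3.58.1 on log2(bases + 200), with Benjamini-Hochberg adjustment over all such genes and a threshold of 0.05, in R 4.3.3. The fits were also run on simulated data. For counts, these took the recovered depth as given, so they do not test the scaling. The replicates are those of the labels, and p-values measure the spread between these samples. Alternatives were TMM factors, DESeq2 1.42.0, missing intervals at 0, a mean count of at least 50, counts shared out by overlap, merged regions as units, a replicate block, and leaving out each library. For covered bases they were centring and 1000 added bases, and for the number of marked genes, lists of equal length and flanks of 0 or 10 kb. Genes named were those called, those present in one group and absent from the other, a fixed list, and the 3 of each family covered over most bases. Any other gene was named after its values were seen, to give a whole family or a count of 5 or fewer. Python 3.11.15 with numpy 2.4.6, pandas 2.3.3, scipy 1.17.1 and matplotlib 3.10.9 was used. A few genes are not reported here by name or drawn with a label, but stay in all counts. Promoter sequences are from RefSeq, and 56 of 75 genes had one.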

Additional observations from a re-analysis of the deposited data

How the results depend on the processing

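The number of receptor genes called depended on the scaling and on single libraries, and the cause was not tested. At E12.5, KO against WT, 1 gene was called with depth scaling, 0 with TMM factors, 3 with DESeq2, 0 with missing intervals set to 0 and 2 with merged regions as units. Over both stages the 0 became 2 with TMM factors and 3 with DESeq2, and the 0 for the difference between the stages became 1 with merged regions. From E12.5 to E15.5 in WT the 9 became 4 with TMM factors, 2 with DESeq2, 0 with missing intervals set to 0 and 15 with merged regions. In KO the 1 became 2 with TMM factors, 6 with DESeq2, 2 with missing intervals set to 0, 0 with a mean count of at least 50, 3 with counts shared out by overlap and 6 with merged regions. Leaving out 1 library gave 0 (without E12.5 WT replicate 2, for example) to 14 genes (without E12.5 KO replicate 3) at E12.5, and 0 to 11 (also without E12.5 KO replicate 3) for the difference between the stages. It gave 0 (without E12.5 WT replicate 3) to 18 (without E12.5 WT replicate 1) between stages in WT, 0 to 1 between stages in KO, and 0 to 1 (without E12.5 WT replicate 1) for covered bases at E12.5. At E15.5, KO against WT, all alternatives run gave 0 receptor genes, for counts and for covered bases. Every gene called with depth scaling kept its direction under every alternative that gave it a value. With lists of equal length the mean number of marked receptor genes was 38.67 in E12.5 KO and 34.33 in E15.5 KO, in place of 43 and 39.33. An interval that depth kept below the caller's threshold is not listed, and the part of depth in these numbers was not tested.

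The labels do not say whether same-numbered libraries share more than a number. The correlation of their deviations from the group means ran from -0.35 to 0.39 and exceeded 0.1 in all 3 pairs of no comparison. So few libraries per group cannot decide whether they were paired. With the number as a replicate block, 2 receptor genes (Grm2 and Htr6) were called at E12.5 in place of 1, 13 between stages in WT in place of 9, and 0 between stages in KO in place of 1, with no other count changed.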
